A study of Homo sapiens with 11 samples.

Results

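The NKX genes NKX2-1, NKX2-2, NKX2-3, NKX2-8, NKX3-2, NKX6-1 and NKX6-2 were examined in 11 cell lines derived from T-cell acute lymphoblastic leukemia (T-ALL), a cancer of immature T-cells. They were chosen as a fixed list of NKX family members, and every probe set that carries one of their symbols and no other was used. This gave 7 genes and 8 probe sets, of 19775 genes and 54613 probe sets in all, with 2 probe sets for NKX2-1 and 1 for each of the remaining 6 genes. The NKL-positive lines were JURKAT, LOUCY, PEER, HPB-ALL, ALL-SIL and CCRF-CEM, and the NKL-negative lines were SUP-T1, MOLT-14, MOLT-4, CML-T1 and MOLT-16. The labels name no treatment, and total RNA of each line was hybridised to 1 Affymetrix HG U133 Plus 2.0 array. The label refers to activity of NKL homeobox genes, the subclass to which the NKX genes themselves belong, so a comparison of the groups is not independent of these genes. The sources used here do not state the level at which a line counted as NKL-positive. Each line is a culture grown from 1 leukemia, and the spread within a group is a spread between lines.

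NKL homeobox genes encode transcription factors that bind DNA through a homeodomain and fix the identity of cells and organs during development. NK2-class proteins such as NKX2-1, NKX2-2, NKX2-3 and NKX2-8 recognise sites with the core CAAGTG, while many other homeodomains bind the core TAATTA. Several NKL genes are silent in mature T-cells and are switched on aberrantly in subsets of T-ALL, where they act as oncogenes. NKX2-1 is known from the thyroid, the lung and the ventral forebrain, and it is one of the NKL oncogenes of T-ALL.

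The values are log2 signals. The lower quartile of an array lay between 3.45 and 3.60, its median between 4.63 and 4.76 and its upper quartile between 6.68 and 7.18. A probe set was said to stand out in a line where its value exceeded the median of the other 10 lines by 2 log2 units or more and also exceeded the median of that array. These positions describe the signal of a probe set and not a number of transcripts, and levels of different probe sets were not set against each other. Between 3 and 4 on the log2 scale, 99.7% to 99.8% of the probe sets of an array sat on only 12 to 33 distinct values, so equal or neighbouring low values have no order. Of the 88 values of the NKX probe sets, 87 were shared with at least 100 other probe sets of the same array. Such sharing was not confined to low values, as NKX2-1 (211024_s_at) at 6.77 in MOLT-14 shared its value with 143 others. How common it is over all probe sets was not counted. Poly-A spike-in controls are RNAs added to a sample ahead of labelling. Their mean signal was 5.65 to 8.76 in 8 lines, but only 2.99 to 3.12 in MOLT-16, HPB-ALL and CML-T1. All lines carried T-lineage transcripts, with the T-cell receptor subunit gene CD3D between 12.64 and 13.44 and the T-cell kinase gene LCK between 10.73 and 12.22. Of 12 T-lineage genes, each read by its brightest probe set on average, 9 exceeded the array median in all lines. The others did so in only a part of the lines, CD1A in 9, CD2 in 7 and RAG1 in 6. In such bulk samples a few cells with much of a transcript and many cells with little of it cannot be told apart.

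Most signals of the NKX genes were low. Of the 88 values, 38 (43.2%) lay at or below the lower quartile of their array, 35 (39.8%) between the lower quartile and the median, 15 (17.0%) above the median and 1 above the upper quartile. Of the 8 probe sets, 2 stood out in at least 1 line, against 10.8% of all probe sets, and they did so in 3 instances: NKX2-1 in JURKAT and MOLT-14, and NKX2-2 in JURKAT. This made 2 of the 8 in JURKAT, against 1.37% of all probe sets, and 1 of the 8 in MOLT-14, against 1.05%. JURKAT, MOLT-14 and SUP-T1 each had 3 NKX probe sets above the array median, CCRF-CEM and LOUCY had 2, and ALL-SIL and MOLT-4 had 1. PEER, MOLT-16, CML-T1 and HPB-ALL had none. NKX2-3 and NKX6-1 exceeded the median in no line, as did 29.0% of all probe sets.

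**Figure D1:**
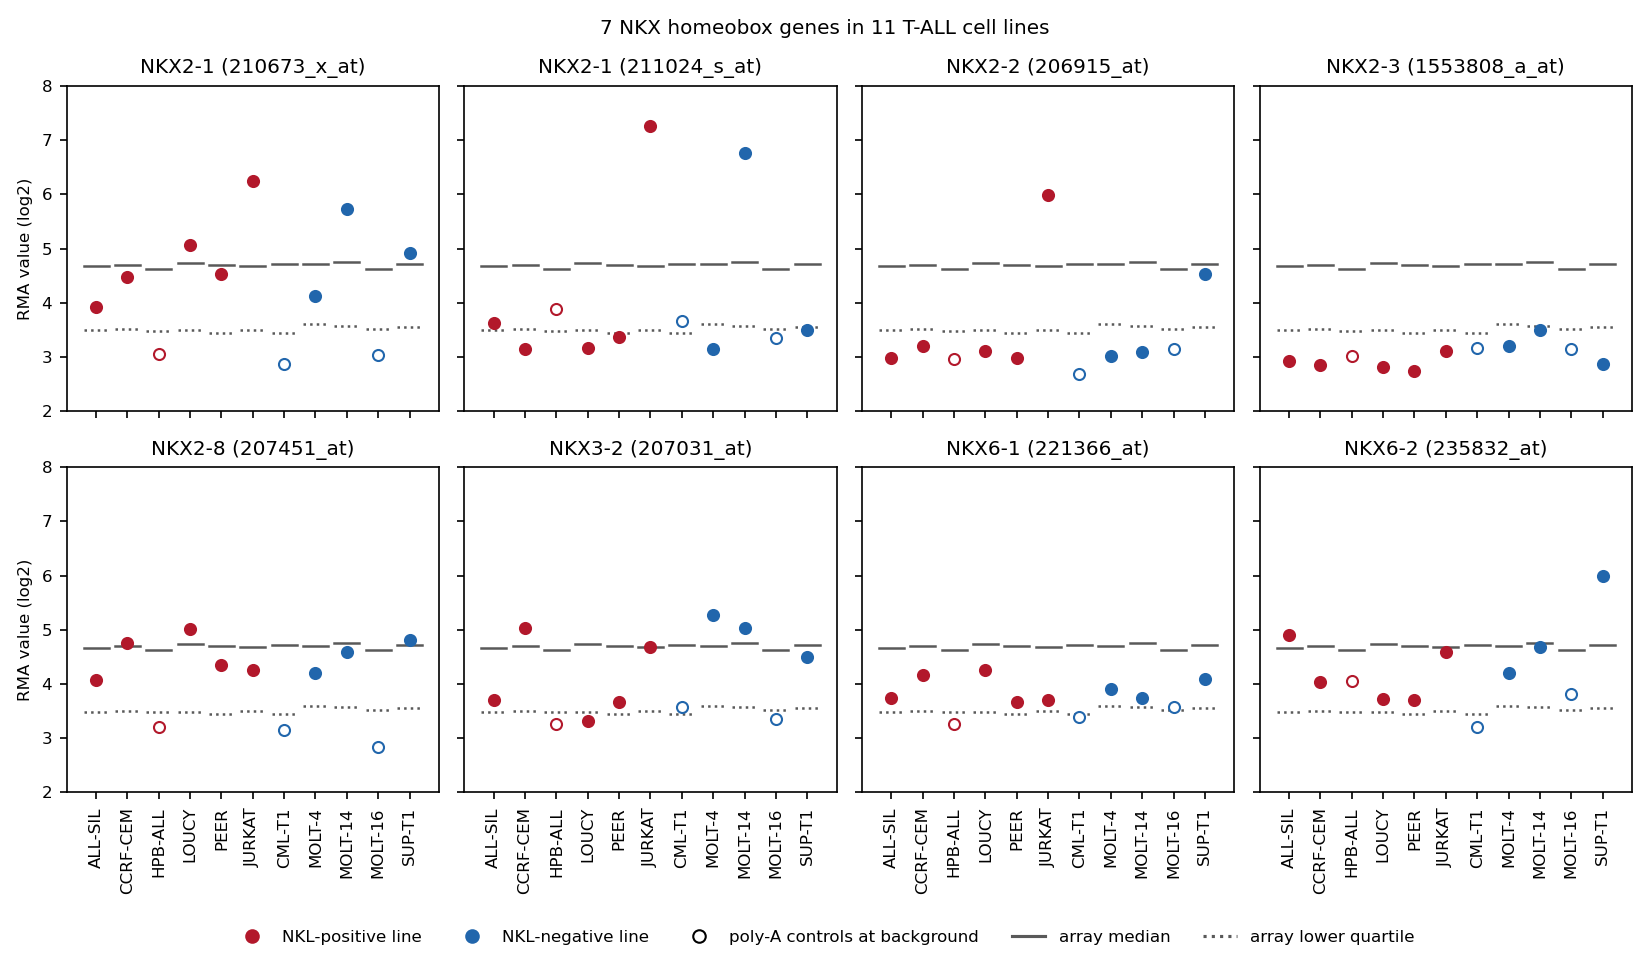
Log2 signal of the 8 NKX probe sets in the 11 T-ALL cell lines, with the lines on the horizontal axis, NKL-positive lines in red and NKL-negative lines in blue, and open circles for the 3 lines whose poly-A controls were at background. NKX2-1 (211024_s_at) reaches 7.27 in JURKAT and 6.77 in MOLT-14 and at most 3.89 elsewhere, and NKX2-2 reaches 5.99 in JURKAT.

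NKX2-1 differed most between the lines, and its 2 probe sets did not read alike. By probe set 211024_s_at the gene measured 7.27 in JURKAT and 6.77 in MOLT-14. The other 9 lines lay between 3.14 and 3.89, with 3.63 in ALL-SIL, 3.14 in CCRF-CEM, 3.89 in HPB-ALL, 3.16 in LOUCY, 3.37 in PEER, 3.67 in CML-T1, 3.14 in MOLT-4, 3.35 in MOLT-16 and 3.50 in SUP-T1. JURKAT and MOLT-14 were thus far apart from the rest, although the former is labelled NKL-positive and the latter NKL-negative. The gap to the median of the other lines was 3.84 in JURKAT and 3.34 in MOLT-14.

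By the second NKX2-1 probe set, 210673_x_at, JURKAT (6.25) and MOLT-14 (5.73) were again the highest lines. LOUCY (5.06), SUP-T1 (4.91), PEER (4.54), CCRF-CEM (4.48), MOLT-4 (4.12) and ALL-SIL (3.92) followed without a clear break, and HPB-ALL (3.06), MOLT-16 (3.04) and CML-T1 (2.88) were the lowest. The top lines were therefore the same by both probe sets, but the second left no such space below them. JURKAT, with a gap of 1.95, lay just outside the rule for standing out, and MOLT-14 had a gap of 1.43. The suffix x_at marks a probe set whose probes can also match other transcripts. The first probe set minus the second ranged from -1.90 in LOUCY to 1.04 in MOLT-14, and the Pearson correlation of the 2 probe sets was 0.66 over the 11 lines and 0.86 over the 8 lines with poly-A control signal.

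The promoter of NKX2-1 is shown because it holds both homeodomain cores searched, and that of NKX2-2 because it holds the first. Sequences were taken from RefSeq on build GRCh38.p14, in windows from 250 bases before to 50 bases after a transcript start, which were given for 6 of the 7 genes (8 windows). The capitals mark the motif, and all 3 stretches are written on the strand of the gene, which is the minus strand. The first lies at chr14:36519678-36519723, the second at chr14:36519634-36519679 and the third at chr20:21522886-21522931, with the motif beginning 147, 103 and 222 bases before the start, respectively.
NKX2-1, CAAGTG: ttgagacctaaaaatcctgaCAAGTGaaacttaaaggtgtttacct
NKX2-1, TAATTA: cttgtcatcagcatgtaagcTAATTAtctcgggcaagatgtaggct
NKX2-2, CAAGTG: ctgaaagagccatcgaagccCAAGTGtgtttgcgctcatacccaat

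The motif CAAGTG, searched on both strands, occurred in 2 of the 8 NKX windows and in 11.5% of the 35116 windows of all genes. TAATTA, which reads the same on both strands, occurred in 1 of the 8 windows and in 4.84% of all windows. The stretches shown for NKX2-1 belong to 1 of its 2 windows and overlap by 2 bases. The 8 windows held between 52.0% and 72.7% G and C, against a median of 58.7% over all windows. No binding was measured in these lines, and the matches are a description of the sequence.

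NKX2-2 specifies progenitors of the ventral neural tube and endocrine cells of the pancreas. Its probe set measured 5.99 in JURKAT and 4.54 in SUP-T1. The other 9 lines lay between 2.68 (CML-T1) and 3.20 (CCRF-CEM), all of them at or below the lower quartile of their array. JURKAT stood out with a gap of 2.94 to the median of the other lines. SUP-T1 had a gap of 1.49 and stayed below the median of its array.

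NKX6-2, known from oligodendrocytes and myelin, came next in order of its largest gap. It measured 5.99 in SUP-T1, 4.91 in ALL-SIL, 4.68 in MOLT-14, 4.59 in JURKAT and 4.20 in MOLT-4. The remaining lines lay between 3.21 (CML-T1) and 4.05 (HPB-ALL). SUP-T1, whose gap of 1.95 fell just short of the rule, was 1.08 above the next line, whereas the other lines formed a continuous series. NKX6-1, which maintains the identity of pancreatic beta cells and patterns motor neurons, lay between 3.26 in HPB-ALL and 4.25 in LOUCY, with a median of 3.74, and exceeded the array median in no line.

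NKX3-2 is a repressor needed in the forming cartilage of the axial skeleton. It measured 5.27 in MOLT-4, 5.04 in both CCRF-CEM and MOLT-14, 4.68 in JURKAT and 4.49 in SUP-T1. The other 6 lines lay between 3.26 in HPB-ALL and 3.71 in ALL-SIL. No line stood out, and the largest gap was 1.58 in MOLT-4.

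NKX2-8 is the neighbour of NKX2-1 on chromosome 14. It was highest in LOUCY (5.01), SUP-T1 (4.82) and CCRF-CEM (4.75), the lines in which it exceeded the array median, and lowest in MOLT-16 (2.83), CML-T1 (3.16) and HPB-ALL (3.20). JURKAT and MOLT-14, the lines with the highest NKX2-1 signals, measured 4.25 and 4.59 and lay within the range of the other lines. NKX2-3, a regulator of the spleen and of gut-associated lymphoid tissue, was at or below the lower quartile in all 11 lines, from 2.75 in PEER to 3.49 in MOLT-14. Among all probe sets, 7.76% showed this in every line.

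For scale, 5 further NKL genes known to be active in T-ALL were each read by the brightest probe set on average. NKX2-1 stood out only by its dimmer probe set. By its brightest on average, 210673_x_at, its largest gap was 1.95. The largest gap of each to the median of the other lines lay between 3.42 (MSX1 in LOUCY) and 6.58 (HHEX in LOUCY). The hematopoietic regulator gene HHEX measured 6.65 in MOLT-14 and stood out there, although this line is labelled NKL-negative, and 3.34 in JURKAT. By its other probe set HHEX measured 5.92 in MOLT-14 and did not stand out there. MSX1, an NKL gene of lymphoid progenitors, measured 7.69 in JURKAT and stood out, while its other probe set measured 4.78 there and stood out in no line. By the brighter probe sets of HHEX and MSX1, NKX2-1 and NKX2-2 were therefore not the only NKL genes with raised signals in those lines.

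**Figure D2:**
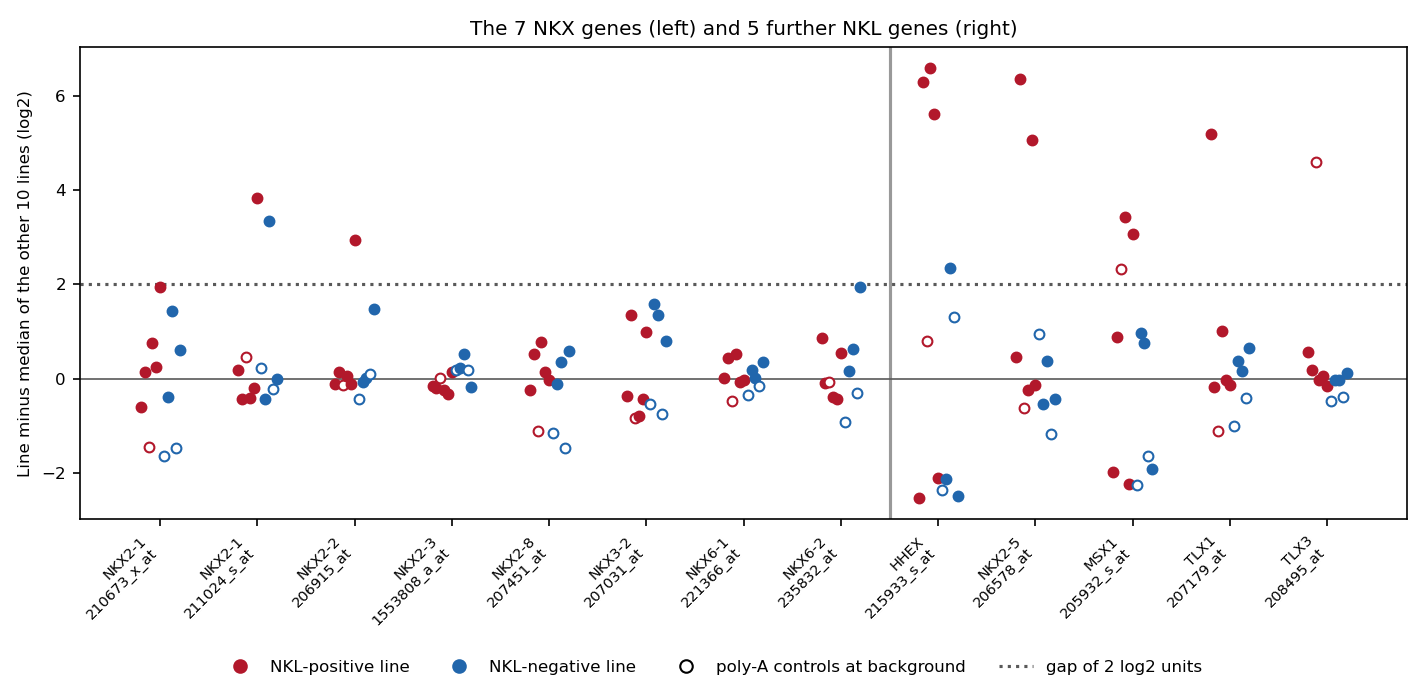
Difference of each line from the median of the other 10 lines (log2 units, vertical axis) for the 8 NKX probe sets on the left and 5 further NKL genes on the right; each point is 1 line, coloured by NKL label, and the dotted line marks a gap of 2. NKX2-1 (211024_s_at) passes it in JURKAT and MOLT-14 and NKX2-2 in JURKAT, while NKX6-2 in SUP-T1 and NKX2-1 (210673_x_at) in JURKAT end at 1.95.

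The genes most like NKX2-1 and NKX2-2 across the lines were sought among 15714 probe sets with a range of at least 2 log2 units. For NKX2-1 (211024_s_at) these were the metallophosphoesterase gene MPPED2 (Pearson r of 0.98), ENPP5 of the ectonucleotide pyrophosphatase family (0.98) and the membrane protein gene TMEM98 (0.97). MPPED2 measured 7.91 in JURKAT and 7.81 in MOLT-14 and at most 3.64 elsewhere. TMEM98 measured 7.98 and 8.43 in those lines and at most 4.13 elsewhere, and ENPP5 measured 4.99 and 4.83 and at most 3.08 elsewhere. All 3 genes thus shared the pair of high lines, and r without JURKAT was 0.97, 0.96 and 0.96 for MPPED2, ENPP5 and TMEM98. For NKX2-2 they were the glycine receptor subunit gene GLRB (r of 0.98), the neural transcriptional regulator gene PRDM13 (0.96) and the endocytosis gene FCHO2 (0.93). GLRB measured 5.89 in JURKAT and 4.49 in SUP-T1, PRDM13 measured 7.35 and 4.82, and FCHO2 measured 7.20 and 3.67. Without JURKAT, r fell to 0.92, 0.84 and 0.87. These correlations rest on 11 arrays in which 1 or 2 lines are high, and they were picked as the highest of many.

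**Figure D3:**
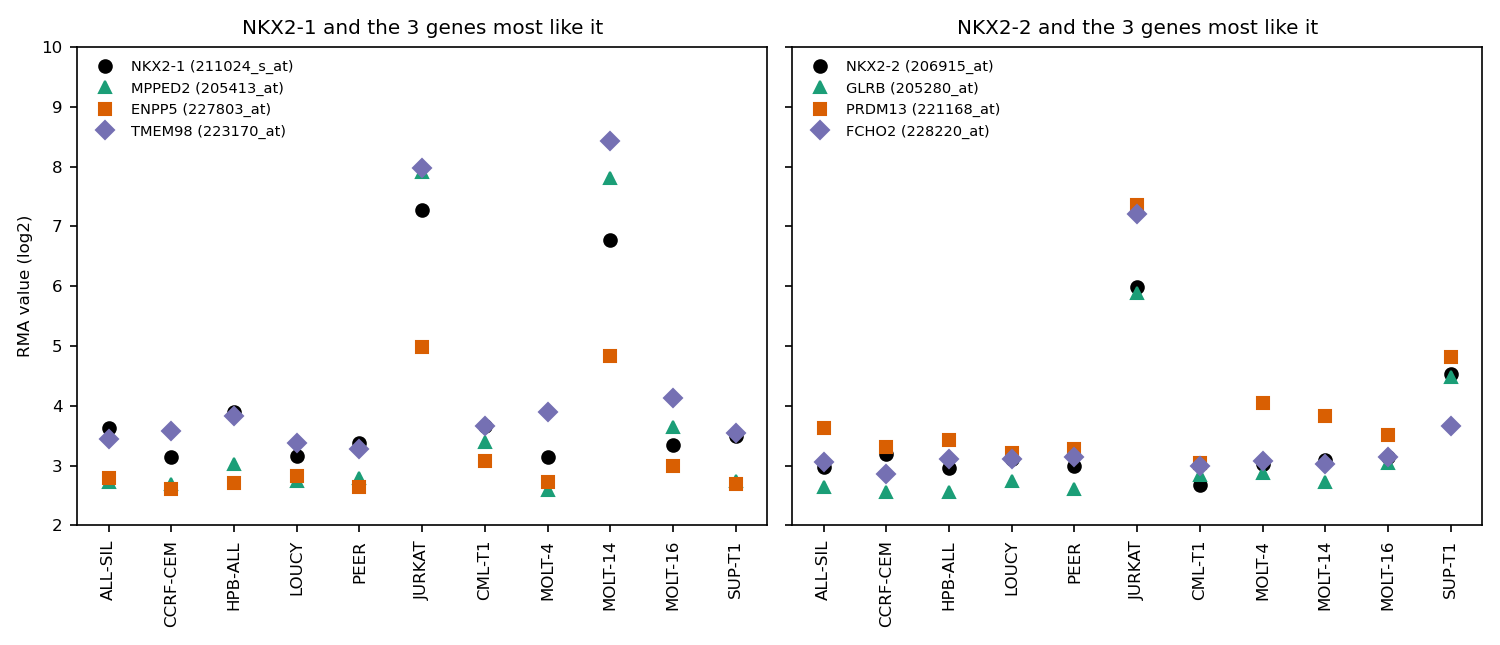
Log2 signal in each of the 11 lines of NKX2-1 (211024_s_at) with MPPED2, ENPP5 and TMEM98, and of NKX2-2 with GLRB, PRDM13 and FCHO2. The first set is high in JURKAT and MOLT-14, and the second is highest in JURKAT.

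Genes next to the NKX genes were read to see whether their signals were raised in the same lines. Of 25 neighbouring genes, 1 stood out in JURKAT, and 1 in MOLT-14 by the probe set that was brightest on average, against 1.99% and 1.46% of all genes. These were GPAT3, an enzyme gene of lipid synthesis near NKX6-1, with 7.08 in JURKAT, and CNNM1 near NKX2-3, with 5.83 in MOLT-14. Neither lies near NKX2-1 or NKX2-2. By any probe set, 3 neighbours stood out in JURKAT, GPAT3, PAX9 (5.40, beside NKX2-8) and CDS1 (5.30, near NKX6-1), against 2.55% of all genes, and 1 in MOLT-14, against 1.85%. By the same count NKX2-1 and NKX2-2 were 2 of the 7 NKX genes in JURKAT and NKX2-1 was 1 of the 7 in MOLT-14. At the NKX2-1 locus, the surfactant-associated gene SFTA3 measured 4.49 in JURKAT and 2.64 to 3.17 in the other 10 lines, which left it below the JURKAT array median. The antisense gene NKX2-1-AS1 ranged from 3.09 to 4.01, highest in MOLT-14. MBIP, on the side of SFTA3, was above the array median in all lines, between 5.83 and 8.12. Beside NKX2-2, the exoribonuclease gene XRN2 lay between 8.15 and 9.76, and PAX1, by its brightest probe set on average, between 3.50 and 5.23.

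Genes known to work with the NKX factors in their own tissues were read by the probe set that was brightest on average, by which 1.99% of all genes stood out in JURKAT and 1.46% in MOLT-14. Of 14 measured lung and thyroid genes listed for NKX2-1, 2 stood out in JURKAT and none in MOLT-14. LAMP3, a lysosomal protein gene of alveolar and dendritic cells, measured 9.00 in JURKAT and 3.25 in MOLT-14, and it also stood out in PEER (6.61). The thyrotropin receptor gene TSHR measured 8.23 in JURKAT and 3.32 in MOLT-14, and it also stood out in CML-T1 (7.43) and MOLT-4 (6.81). Both genes were thus high in lines with low NKX2-1 signal as well. Of the 14 genes, 8 exceeded the array median in JURKAT and 5 in MOLT-14. SFTPB and PAX8 did so in all lines, and SFTPD, SCGB1A1, FOXE1 and FOXA1 in no line. SCGB3A1 stood out in PEER (9.62).

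Of 12 pancreatic and neural partners of NKX2-2 and NKX6-1, 1 stood out in JURKAT and none in MOLT-14, and 8 were above the array median in no line. It was PAX6, a regulator of eye and endocrine pancreas, with 8.77 in JURKAT and 8.30 in CML-T1, where it also stood out. Of 11 ventral neural tube and oligodendrocyte genes, 2 stood out in JURKAT and 1 in MOLT-14. The myelin gene MBP stood out in MOLT-14 (8.82), MOLT-16 (8.76), JURKAT (8.52) and PEER (7.62). The hedgehog receptor gene PTCH1 stood out in CML-T1 (8.46) and JURKAT (6.44). Each of these genes also stood out in a line where NKX2-1 (211024_s_at) and NKX2-2 were low. Their relation to the NKX genes was not tested.

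Of 12 skeletal genes of NKX3-2, 1 stood out in JURKAT and 1 in MOLT-14. RUNX2, a regulator of bone formation, stood out in MOLT-16 (10.39), LOUCY (8.27) and JURKAT (6.72), and the proteoglycan gene GPC3 stood out in MOLT-14 (5.92) and in no other line. Of 11 spleen and gut genes of NKX2-3, none stood out in JURKAT or MOLT-14. Of 11 corepressors that NKL proteins recruit, 7 were above the array median in all lines, and CTBP2 (9.83) stood out in MOLT-14. By a dimmer probe set, CTBP2 also stood out in JURKAT (6.42), CML-T1 (8.49) and MOLT-16 (8.43).

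Among markers of cell types, 1 of 12 T-lineage genes stood out in JURKAT and 1 in MOLT-14. CD2 stood out in JURKAT (10.89), MOLT-16 (10.12), MOLT-4 (10.09) and HPB-ALL (9.97), and CD1A in HPB-ALL (12.13), MOLT-14 (11.56) and SUP-T1 (9.02). None of 5 B-cell, 5 myeloid and 6 epithelial genes stood out in JURKAT or MOLT-14. Some did in other lines, in which no NKX probe set stood out. The B-cell marker CD79A was above the array median in all 11 lines and stood out in CML-T1 (10.12) and LOUCY (9.25). MS4A1 stood out in CML-T1 (6.54). CD22 exceeded the array median in 8 lines and PAX5 in 7 without standing out, and BLNK in none. The myeloid marker LYZ stood out in LOUCY (5.48) and CML-T1 (5.21), and CSF1R exceeded the array median in 4 lines without standing out. The epithelial marker EPCAM stood out in PEER (5.58) and CCRF-CEM (6.44), and CDH1 in HPB-ALL (7.53). KRT18 exceeded the array median in 9 lines and KRT8 and KRT7 in 8 each, all without standing out, and KRT19 in none. The myeloid genes MPO, between 3.51 and 4.44, and CD14, between 3.04 and 3.98, stayed below the array median in every line.

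The lines without poly-A control signal read low for a part of the NKX genes. In these 3 lines, NKX2-1 (210673_x_at) measured 2.88 to 3.06 against 3.92 to 6.25 in the other 8. NKX2-8 measured 2.83 to 3.20 against 4.07 to 5.01, and NKX6-1 measured 3.26 to 3.58 against 3.67 to 4.25. The ranges did not overlap for these 3 of the 8 probe sets, against 7.81% of all probe sets and 9.99% of the probe sets with a mean between 3 and 5. For NKX6-1 only 3.58 against 3.67 separated them, and neighbouring values this low have no order. On average 7 of the 8 were lower in the 3 lines, against 46.8% of all. One of the 7, NKX2-1 (211024_s_at), had a lower mean there (3.64 against 4.25) but a higher median (3.67 against 3.435). Its 8-line mean includes the high values of JURKAT and MOLT-14. The control signal moves with these levels, and its part in them was not tested. NKX2-1 (211024_s_at) and NKX2-2 stood out in lines that had the control signal, and all 3 instances were also found when only those 8 lines were used. That restriction was chosen after seeing the data. It removed only lines without an instance, so it could hardly change the count.

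The comparison of NKL-positive with NKL-negative lines asks which genes go along with NKL activity. It was made with 5 lines in each group, leaving out JURKAT as the study's own comparison did. None of the 8 NKX probe sets passed an adjusted p of 0.05 in limma, against 5 probe sets (0.00916%) of all, and none had an unadjusted p below 0.05, against 4.90% of all. The NKL-positive and NKL-negative lines overlapped for all 8 probe sets, while 0.879% of all probe sets did not overlap. In the NKL-positive lines 3 were higher and 5 lower on average, against 51.7% of all probe sets lower, and the median difference of the 8 was -0.27 against -0.012 over all probe sets.

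NKX2-1 (211024_s_at) averaged 3.44 ± 0.32 (SD, n = 5) in the NKL-positive and 4.09 ± 1.51 (SD, n = 5) in the NKL-negative lines. The difference was -0.65 (standard error 0.62, 95% interval -2.01 to 0.72, limma adjusted p = 0.981), and it was 0.023 without MOLT-14, the NKL-negative line with the high value, and -0.0093 with JURKAT included. NKX2-1 (210673_x_at) averaged 4.21 ± 0.76 and 4.14 ± 1.22, a difference of 0.076 (95% interval -1.20 to 1.35), which was 0.42 with JURKAT included. NKX2-2 averaged 3.05 ± 0.10 and 3.30 ± 0.72, a difference of -0.25 (95% interval -0.94 to 0.45), which turned to 0.063 without SUP-T1 and to 0.24 with JURKAT included. The sign of the NKX2-1 and NKX2-2 differences thus rested on single lines.

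NKX3-2 averaged 3.80 ± 0.72 and 4.34 ± 0.86, a difference of -0.54 (95% interval -1.56 to 0.47), which was -0.31 without MOLT-4, -0.85 without CCRF-CEM and -0.998 with only the lines having poly-A control signal. NKX2-8 averaged 4.28 ± 0.70 and 3.92 ± 0.88, a difference of 0.36 (95% interval -0.66 to 1.37), which was 0.086 without MOLT-16 and 0.011 with only the lines having poly-A control signal. NKX6-1 differed by 0.076 (95% interval -0.44 to 0.59) and NKX6-2 by -0.29 (95% interval -1.33 to 0.75), the latter turning to 0.11 without SUP-T1. None of these intervals left out 0. NKX2-3 averaged 2.87 ± 0.10 and 3.18 ± 0.22, a difference of -0.30 (95% interval -0.67 to 0.064, limma adjusted p = 0.981). An exact two-sided permutation test of that mean difference, 1 of 8 such tests and not adjusted, gave p = 0.0238, where 252 assignments allow 0.00794 at the lowest. limma gave an unadjusted p of 0.0963, and 0.0266 with an intensity trend in the variance (adjusted p = 0.964). All values of NKX2-3 lay at or below the lower quartile of their array, and each was shared with 317 to 1261 other probe sets of that array.

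**Figure D4:**
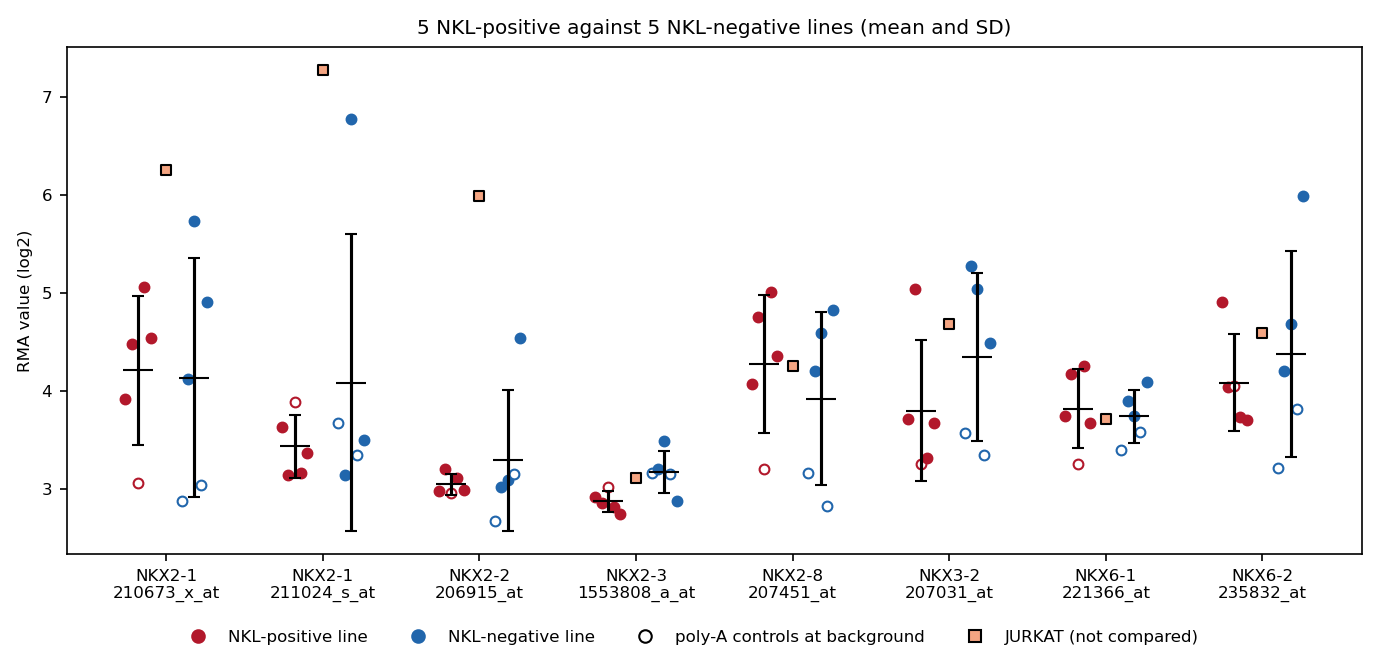
Log2 signal of the 8 NKX probe sets by NKL label; points are single lines, with the group mean and standard deviation of the 5 lines per group that were compared, and JURKAT drawn separately. The groups overlap for every probe set, and MOLT-14 is the high NKL-negative line of NKX2-1 (211024_s_at).

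None of the gene lists held a gene that passed limma in this comparison. Their median differences lay between -0.14 for the skeletal genes of NKX3-2 and 0.15 for the B-cell markers, apart from the 5 further NKL genes with 1.22. Those 5 genes were chosen as active in NKL-positive lines, so their difference is not independent of the label.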

How the data were processed

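Total RNA of 11 T-ALL cell lines was labelled with biotin and hybridised to HG U133 Plus 2.0 arrays, 1 array per line. The authors deposited log2 expression values of each array, and the submitters' processing notes name RMA, affy and limma; no genome build is named. The values were used as deposited. Lines were the replicates, and their small number limits how precisely a group can be described.

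Without the 62 control probe sets, 54613 remained. GEO's platform annotation gave 1 symbol to 41091 probe sets, several to 1801 and none to 11721. Groups were compared with limma 3.58.1 in R 4.3.3 (lmFit and eBayes, Benjamini-Hochberg adjustment over all probe sets), tested on simulated data first. Exact permutation tests were run in the same R version. Within lists, the brightest probe set on average stood for a gene. Genes named are the members, 5 further NKL genes and the 3 genes most correlated with each probe set that stood out. The 2 nearest measured genes per side in the RefSeq gene table were also named, as were list genes that stood out in JURKAT or MOLT-14. Further list genes were named after their values were seen. Members and 11 gene lists were chosen with earlier results of these data known. Alternatives covered the lines compared, poly-A controls, normalization, filters, floor, variance model, array weights and the rule for standing out.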

Additional observations from a re-analysis of the deposited data

Results flagged for a closer look

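Dixon's test at the 5% level was run on each probe set within each NKL group. In 4 of 16 such tests a single line lay farther from the others than the test allows. The nominal rate is about 1 in 20, but the share over all probe sets was not counted, so no excess is read from this count. The flagged values include every instance of standing out, so they are not a separate result. NKX2-1 (211024_s_at) measured 7.27 in JURKAT, where the other NKL-positive lines reached at most 3.89, and 6.77 in MOLT-14, where the other NKL-negative lines reached at most 3.67. NKX2-2 measured 5.99 in JURKAT, against at most 3.20 in the other NKL-positive lines, and 4.54 in SUP-T1, against at most 3.15 in the other NKL-negative lines. With 1 array per line, none of these values has a repeat measurement.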

How the results depend on the processing

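The number of NKX probe sets called between the NKL groups was 0 under every limma setting and with each line left out (0 to 0), and 1 by the unadjusted exact permutation test. A filter keeping only probe sets above the median of the means left no NKX probe set to test. The 3 instances of a probe set standing out became 9 with a gap of 1, 1 above the 75th percentile, 5 after quantile normalization and 1 when only the probe set of a gene with the highest mean was read. With each line left out they ranged from 1, without JURKAT, to 4. Of 144 group differences under alternatives, 128 kept their direction and 16 reversed, in 5 probe sets. NKX2-1 (210673_x_at) reversed to -0.42 with only the lines having poly-A signal, -0.27 with a term for the lines lacking it, -0.05 with a floor at the lower quartile and -0.057 with array weights, and ranged from -0.24 to 0.47 with each line left out. NKX2-2 reversed to 0.24 with all 11 lines and ranged from -0.40 to 0.063. NKX6-1 reversed to -0.030 with the poly-A term and ranged from -0.032 to 0.22. NKX2-1 (211024_s_at) ranged from -0.88 to 0.023 and NKX6-2 from -0.59 to 0.11. Without a reversal, NKX2-3 ranged from -0.38 to -0.22, NKX2-8 from 0.086 to 0.63 and NKX3-2 from -0.85 to -0.31. With an intensity trend, 1 probe set, NKX2-3, had an unadjusted p below 0.05. The cause was not tested. The restriction of the instances to the 8 lines with poly-A signal was chosen after seeing the data and left 3. No paired analysis was possible because no line occurs in both groups and the replicate numbers only name lines.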

Other observations

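The correlation of NKX2-1 (210673_x_at) with its neighbour NKX2-8 was 0.78 over the 11 lines and 0.23 over the 8 lines with poly-A control signal. That of NKX2-8 with NKX6-1, on another chromosome, was 0.85 and 0.81. PAX9, on the far side of NKX2-8, stood out by probe set 231145_at in CML-T1 (6.79), MOLT-16 (6.73), JURKAT (5.40) and CCRF-CEM (5.39), while its other probe set stood out in no line and ranged from 3.16 to 5.22. The lipid enzyme gene CDS1 near NKX6-1 stood out by probe set 205709_s_at in CML-T1 (6.46) and JURKAT (5.30).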
